A study of Homo sapiens with 6 samples.

Results

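The nuclear genes for the subunits of mitochondrial complex I were examined in HT29 cells after knockdown of ALDOA. Members were taken by symbol, as NDUF followed by A, B, C, S or V and digits, together with NDUFAB1 and NDUFA4L2, while the NDUFAF assembly factors were left out. This gave 39 of the 28278 genes listed in each library. Of the 39 members, 37 encode subunits of complex I, and the other 2 carry the name only. NDUFA4 is a subunit of cytochrome c oxidase, and NDUFA4L2 is its paralog.

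HT29 is an epithelial line from a human colorectal adenocarcinoma. In the siALDOA group the cells received an siRNA directed to ALDOA, and in the siControl group a scrambled siRNA. RNA was taken from 3 biological replicates of each group at 48 h and sequenced, so the comparison shows which transcripts differ in 1 cell line at 1 time point. The cell line and the time were the same in both groups.

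Complex I takes electrons from NADH, passes them through a flavin and a chain of iron-sulfur clusters to ubiquinone, and couples this transfer to proton pumping across the inner mitochondrial membrane. It is shaped like an L, with a peripheral arm that reaches into the matrix and carries the redox centres, and a membrane arm that pumps protons. The core subunits are shared with bacteria and are divided between the nuclear and the mitochondrial genome, and the accessory subunits, all from nuclear genes, are needed for assembly and stability. ALDOA, the aldolase of glycolysis, acts upstream of the pyruvate that feeds this chain. The 7 core subunits encoded by mitochondrial DNA were not analysed here.

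The libraries were of similar depth, but every siALDOA total was below every siControl total. The median total was 28166497 counts in siALDOA and 31973122 counts in siControl, within a range from 27277538 to 33237914. At these depths 1 CPM (a count scaled to library size with TMM factors) stood for 27.8 to 32.95 counts. Ribosomal RNA genes took 13.1%, 7.71% and 8.11% of the counts in siALDOA replicates 1, 2 and 3. In the siControl replicates they took 17.4%, 15.3% and 8.15%. By a chi-square per gene between libraries, the closest pairs were siALDOA replicates 2 and 3 (5.09) and siControl replicates 1 and 2 (11.4). This measure used counts scaled to library totals, with ribosomal RNA genes included and no TMM factors, so the ribosomal RNA share enters it. By it, the other library of each group stood nearest to a library of the other group. siControl replicate 3 was at 23.0 from siALDOA replicate 3 and at 58.2 from siControl replicate 2. siALDOA replicate 1 was at 26.4 from siControl replicate 2 and at 34.5 from siALDOA replicate 3. The cause was not tested. Together the 39 members took between 46078 and 56489 counts per library, and the member with the lowest counts among those tested, NDUFB1, had at least 76 in every library.

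ALDOA, the target of the siRNA, was measured at 283, 305 and 280 CPM in siALDOA replicates 1, 2 and 3 and at 592, 637 and 668 CPM in the siControl replicates. The groups did not overlap. The mean was 289 ± 13.7 CPM (SD, n = 3) against 632 ± 38.2 CPM (SD, n = 3), and the log2 fold change was -1.13 (standard error 0.060, edgeR adjusted p = 6.95e-11). The level of the targeted gene thus fitted the label of all 6 libraries. In bulk RNA, a lower level in every cell and a loss in some of the cells cannot be told apart, here and for the genes that follow.

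The labelled cell type was also matched by its markers. All 10 colon epithelial markers were above 1 CPM on average, with keratin gene KRT8 the most abundant, and their summed level was 9479, 9653 and 9811 CPM in siALDOA and 10045, 10320 and 10606 CPM in siControl. Of these, 8 had a negative and 2 a positive log2 fold change, with a median of -0.118. KRT19 rose, KRT18 fell and the other 8 did not pass an adjusted p of 0.05, which 9.66% of all tested genes passed. The call of KRT18 was lost when any of 4 libraries was left out and with library totals alone (0.243). The 7 fibroblast markers summed to at most 4.46 CPM in any library. Of the 8 blood cell markers, CD3E and TYROBP were at 0 in all libraries, PTPRC reached 0.0303 CPM in 1 library and was at 0 in the others, and CD14 held nearly all of the summed level. CD14 averaged 16.9 ± 0.712 CPM in siALDOA (SD, n = 3) against 13.5 ± 1.04 CPM in siControl (SD, n = 3), and its log2 fold change was 0.32 (edgeR adjusted p = 0.0485). This call was lost with limma-voom (0.0525), after a correction for length and GC content (0.0521) and when any of 5 libraries was left out (up to 0.153). Its part in the values of other genes was not tested.

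The complex I genes as a group stood at similar levels in both groups of cells. Their summed level was 1719, 1731 and 1622 CPM in siALDOA and 1596, 1764 and 1714 CPM in siControl, with means of 1691 ± 59.9 CPM (SD, n = 3) and 1692 ± 86.2 CPM (SD, n = 3). No member passed an adjusted p of 0.05 with edgeR in either direction, against 4.36% of all 15307 tested genes higher and 5.29% lower with siALDOA, or 9.66% in either direction. With limma-voom and with DESeq2 the count was also 0. It was not 0 in 4 of the 16 alternatives. Among these, a correction for transcript length and GC content called NDUFA9 higher and NDUFA5 lower, as did a block by replicate number. Block and correction together called NDUFA9 higher and NDUFA5, NDUFB4, NDUFB9 and NDUFS6 lower. Of the 15307 tested genes, the correction called 853 higher and 1112 lower, the block 987 and 1175, and both together 1220 and 1576. Without siALDOA replicate 1 NDUFA5 was called lower, where 644 of 15646 tested genes were called higher and 790 lower. At an unadjusted p under 0.05, where 23.6% of all tested genes were found, there were 2 of 38 members, NDUFA9 with a positive and NDUFA5 with a negative log2 fold change. At the stricter unadjusted threshold of 0.01 that the study used, NDUFA9 was the single member called higher, where 5.72% of all tested genes were called, and 0 members were called lower, where 6.74% of all tested genes were.

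The fold changes of the members were small and their intervals narrow. Of the 38 tested members, 24 had a positive and 14 a negative log2 fold change, with a median of 0.041 and a range from -0.20 for NDUFA5 to 0.19 for NDUFB1 and NDUFA9. After the correction for length and GC content the median was 0.0081 and 21 were positive. With library totals alone 32 were positive, and without siControl replicate 1 only 16 were. The median of all tested genes was 0.0016. The interquartile range of the members lay between -0.032 and 0.071, and that of all tested genes between -0.124 and 0.137. For 36 of the 38 members the 95% interval of the fold change lay within 1.3-fold in both directions, and for 37 it lay within 1.5-fold. The widest intervals were those of NDUFA4L2 and of NDUFB1, the member with the lowest mean CPM among those tested, whose interval ran from -0.26 to 0.64 on the log2 scale.

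**Figure D1:**
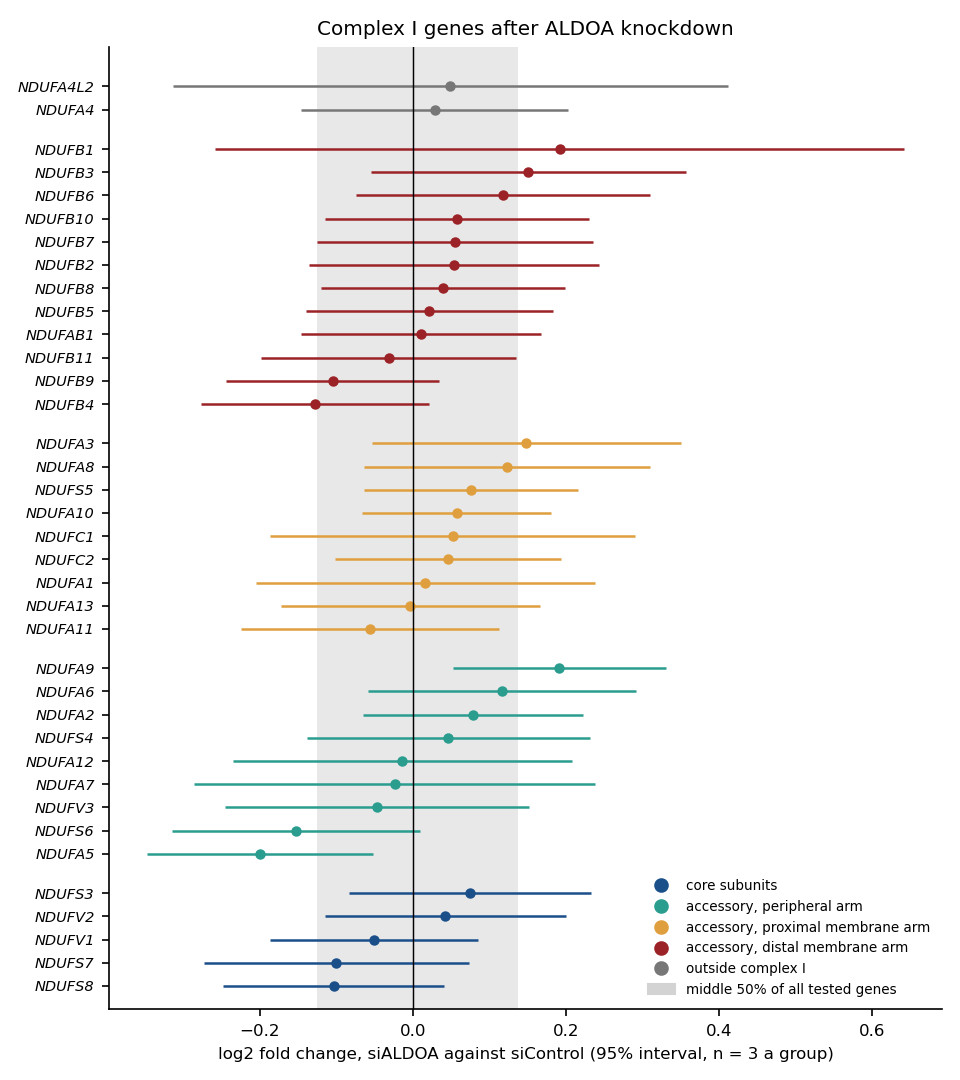
Log2 fold change of 37 of the 38 tested members with siALDOA against siControl (horizontal axis) with the 95% interval from edgeR (n = 3 libraries a group), grouped and coloured by role. The grey band spans the interquartile range of all tested genes, from -0.124 to 0.137. Intervals of NDUFA9 and NDUFA5 lie on one side of 0 and all others cross it.

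Single libraries of a group differed from each other by more than the groups did. Relative to the siControl mean, the median member stood at 0.059, 0.064 and -0.063 on the log2 scale in siALDOA replicates 1, 2 and 3, and at -0.083, 0.086 and 0.029 in the siControl replicates. siALDOA replicate 3 and siControl replicate 1 were thus the lowest of their groups. The median of all tested genes stayed between -0.0012 and 0.0072 in these libraries. The 39 subunits of complexes II to V were also lowest in siControl replicate 1, at -0.092, as were 1500 other genes under 1000 bases, at -0.028. After the correction for length and GC content the lowest member median was that of siALDOA replicate 3, at -0.065, with siControl replicate 1 at -0.054. With siControl replicate 1 left out the median log2 fold change of the members between the groups was -0.017, so its sign rested on that library. The share of ribosomal RNA counts also differed between these libraries, from 7.71% in siALDOA replicate 2 to 17.4% in siControl replicate 1. Its relation to the medians was not tested.

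**Figure D2:**
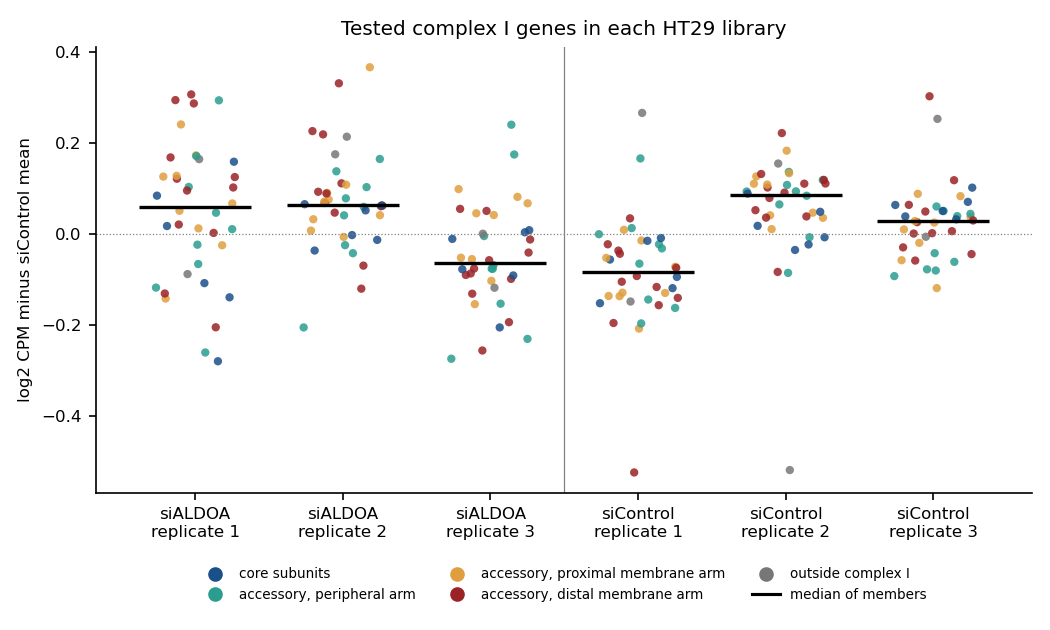
Log2 CPM of the 38 tested members in each library, as the difference from the siControl mean of the same gene (vertical axis); points are genes coloured by role and black bars are library medians. The medians lie between -0.083 and 0.086 and those of siALDOA fall inside the range of the siControl libraries.

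Transcript levels of complex I genes were next compared with each other, as CPM per kilobase of transcript. They spanned a wide range although the subunits are present in equal numbers in the complex, apart from NDUFAB1. The level over all libraries was highest for NDUFB9, at 240 CPM per kilobase, and lowest for NDUFV3, at 3.52 CPM per kilobase. The transcript lengths ran from 317 to 11660 bases, with a median of 696 for the members against 2270 for all listed genes with an annotated transcript. A level per kilobase depends on which transcript is taken as the length. For NDUFA9, NDUFA5, NDUFV3, NDUFB5 and NDUFA10 the annotated canonical transcript is between 4199 and 8356 bases long, and a shorter transcript would give a higher level. In 15 members an exon overlaps another listed gene, and 19 members have named pseudogenes, so reads of these members could also have been counted elsewhere or come from elsewhere. Among them are NDUFC2, which shares exons with NDUFC2-KCTD14, and NDUFB2, which overlaps its antisense gene NDUFB2-AS1. The genes of each pair had similar counts in every library and may hold the same reads, which was not tested.

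**Figure D3:**
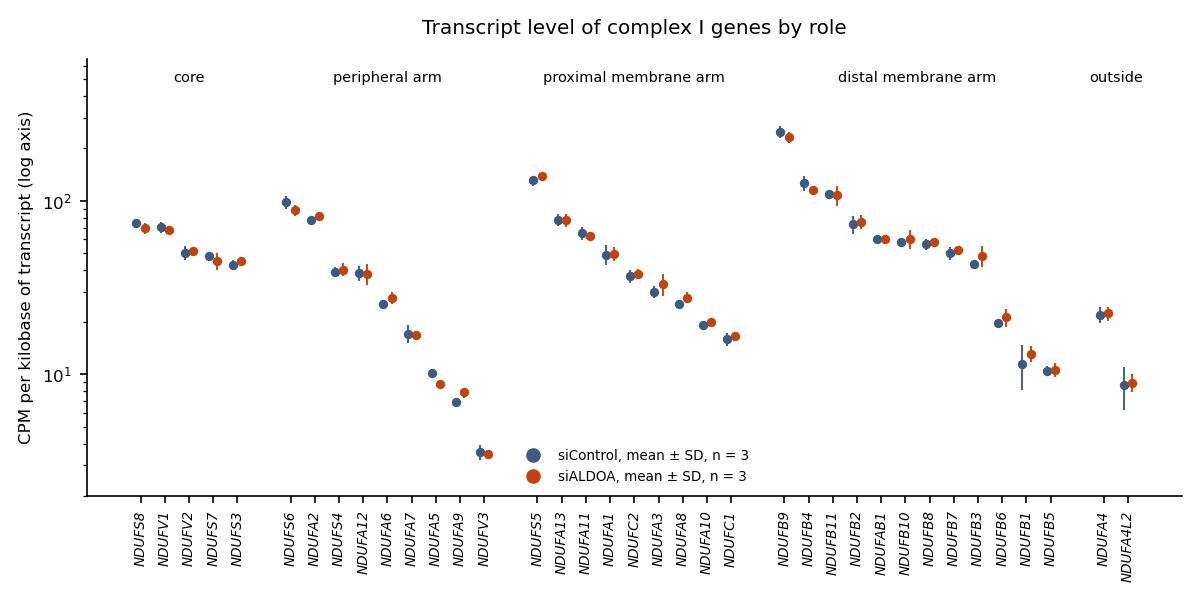
Transcript level of 37 of the 38 tested members by role, in CPM per kilobase of the canonical transcript (vertical log axis), as mean ± SD of 3 libraries for siControl (blue) and siALDOA (orange). Levels run from about that of NDUFV3, 3.52, to that of NDUFB9, 240, and the difference between genes is far larger than that between groups.

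The nuclear core subunits hold the flavin, the iron-sulfur clusters and the ubiquinone site. NDUFS1, the largest of them and an iron-sulfur protein of the NADH-oxidising module, was listed at 0 in all 6 libraries and was not tested. It lies on chromosome 2 from 206114817 to 206159509 on the minus strand. This value is not a measure of its transcript, since genes that every cell uses were listed at 0 in the same libraries. EEF1B2, a translation elongation factor encoded next to NDUFS1, was at 0 in all 6 libraries, as were the ribosomal protein gene RPL7A and the initiation factor gene EIF3K. These 3 genes were looked up after the value of NDUFS1 was seen. In total 7308 of the 28278 listed genes were at 0 in all libraries.

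The 6 core subunits that were tested showed no difference beyond the replicate spread. Their median log2 fold change was -0.041, with 2 positive and 4 negative values, and scaling by library totals alone turned it to 0.030, the correction for length and GC content to -0.068, and with a library left out it ran from -0.082 (without siControl replicate 1) to -0.013 (without siALDOA replicate 1). NDUFS8, an iron-sulfur subunit of the arm that leads to ubiquinone, had the highest level of the tested core subunits, at 71.9 CPM per kilobase, and the smallest p among them. Its level was 50.9, 54.8 and 47.6 CPM in siALDOA and 54.3, 53.5 and 56.8 CPM in siControl. The groups overlapped through siALDOA replicate 2, and the log2 fold change was -0.10 (standard error 0.069, edgeR adjusted p = 0.400). NDUFV1, the flavoprotein that binds NADH, was at 69.1 CPM per kilobase, with a log2 fold change of -0.05 and an interval from -0.19 to 0.09.

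The accessory subunits of the peripheral arm include NDUFA9 and NDUFA5. NDUFA9 sits near the junction of the arms and binds a nicotinamide nucleotide. It is encoded on chromosome 12 from 4649095 to 4694317. Its level was 70.6, 61.8 and 65.0 CPM in siALDOA and 56.3, 57.3 and 59.1 CPM in siControl. Every siALDOA library was above every siControl library, with siALDOA replicate 1 the highest. The means were 65.8 ± 4.42 CPM (SD, n = 3) and 57.6 ± 1.44 CPM (SD, n = 3), and the log2 fold change was 0.19 (standard error 0.067), with an interval from 0.053 to 0.33. The unadjusted p of NDUFA9 was 0.0093 and the edgeR adjusted p was 0.0774, above the threshold. With a correction of each library for transcript length and GC content the adjusted p was 0.0276, and with a block by replicate number 0.0423. Over all alternatives it ranged from 0.0108 to 0.205.

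NDUFA5, a small subunit of the ubiquinone-binding module, is encoded on chromosome 7 from 123536997 to 123557904. It was the one member with siALDOA below siControl in every library. Its level was 51.3, 48.2 and 46.0 CPM in siALDOA and 55.6, 59.3 and 52.2 CPM in siControl. siControl replicate 3 and siALDOA replicate 1 were closest to each other. The means were 48.5 ± 2.64 CPM (SD, n = 3) and 55.7 ± 3.59 CPM (SD, n = 3), and the log2 fold change was -0.20 (standard error 0.071, interval -0.35 to -0.052). Its unadjusted p was 0.0106 and its edgeR adjusted p 0.0832. Without siALDOA replicate 1 the adjusted p was 0.0389, and with the correction for length and GC content 0.0440. With the block by replicate number it was 0.0371, within a range from 0.0199 to 0.419 over all alternatives. The gene has 12 named pseudogenes, and reads from these could not be told apart here.

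Groups that did not overlap were found for 4 of the 38 tested members, where 27.7% of all tested genes had such groups in either direction. NDUFA9, NDUFA8 and NDUFA10 were higher in siALDOA and NDUFA5 lower. NDUFA8 and NDUFA10 belong to the proximal part of the membrane arm. NDUFA5, NDUFA8 and NDUFA10 were named after their values were seen.

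The upstream sequences of NDUFA9 and NDUFA5 are shown because these members had the smallest p in opposite directions, and because factors known to drive nuclear respiratory genes were measured in the same libraries. RefSeq windows on GRCh38.p14, from 250 bases before to 50 bases after the start of transcription, were found for 32 of the 39 members. Each window was searched on both strands for GCATGCGC, a form of the NRF1 motif, for CCGGAAGT, a form of the ETS motif bound by GABPA, and for AAGATGGC, a form of the YY1 motif. The NDUFA9 window is chr12:4648864-4649163 on the plus strand, with a YY1 match in capitals that begins at base 11 of the transcript. The NDUFA5 window is chr7:123557769-123558068 on the minus strand, with an NRF1 match in capitals, read as GCGCATGC on this strand, at position -158 from the start.
NDUFA9: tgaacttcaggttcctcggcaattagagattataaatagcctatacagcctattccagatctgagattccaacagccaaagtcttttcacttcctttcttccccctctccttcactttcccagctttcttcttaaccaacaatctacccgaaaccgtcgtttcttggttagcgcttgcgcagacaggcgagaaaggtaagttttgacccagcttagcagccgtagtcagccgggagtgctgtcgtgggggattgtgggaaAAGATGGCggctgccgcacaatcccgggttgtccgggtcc
NDUFA5: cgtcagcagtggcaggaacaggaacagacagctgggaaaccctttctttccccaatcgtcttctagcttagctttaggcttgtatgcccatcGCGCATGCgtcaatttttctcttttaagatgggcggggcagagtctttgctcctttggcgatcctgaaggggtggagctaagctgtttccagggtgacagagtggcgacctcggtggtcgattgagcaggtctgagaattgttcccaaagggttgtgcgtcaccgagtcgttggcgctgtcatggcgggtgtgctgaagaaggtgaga
The YY1 letters were in 7 of the 32 member windows (21.9%) and in 3.84% of the 17584 windows of all listed genes. The NRF1 letters were in 6 member windows (18.8%) and in 4.11% of all windows, and the GABPA letters in 2 member windows (6.25%) and in 5.81% of all windows. All 7 YY1 matches began between bases 11 and 26 of the transcript, in NDUFA3, NDUFA6, NDUFA7, NDUFA9, NDUFB8, NDUFS4 and NDUFS7. The NRF1 matches were in NDUFA5, NDUFA6, NDUFA8, NDUFB4, NDUFS6 and NDUFS7, and both NDUFA8 and NDUFB4 held a pair of overlapping matches. A match describes the letters of the window and was not tested as a binding site.

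The accessory subunits of the peripheral arm gave values on both sides of 0. Of the 9 tested genes, NDUFA9 and NDUFA5 included, 4 had a positive and 5 a negative log2 fold change, with a median of -0.013 that was 0.058 with library totals alone. Leaving out single libraries put it between -0.055 (siALDOA replicate 2) and 0.051 (siALDOA replicate 3), above 0 in 4 of 6 fits, and the correction for length and GC content put it at -0.029. NDUFS6, a zinc-binding subunit of the NADH-oxidising module, had the highest level of this group, at 93.0 CPM per kilobase. It was measured at 42.2, 49.1 and 45.5 CPM in siALDOA and 45.8, 54.0 and 52.4 CPM in siControl, and the groups overlapped. Its log2 fold change was -0.15 (standard error 0.077, edgeR adjusted p = 0.242). NDUFV3, a small subunit of the same module, had the lowest level and a log2 fold change of -0.05, which was 0.03 with library totals alone and 0.04 without siControl replicate 1. NDUFS4, which is often mutated in inherited complex I deficiency, had a log2 fold change of 0.05 with an interval from -0.14 to 0.23, and of -0.019 without siALDOA replicate 1.

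In the proximal part of the membrane arm, 7 of 9 tested genes had a positive log2 fold change and the median was 0.052. Without siControl replicate 1 the median was 0.022 and 5 were positive, and without siControl replicate 2 it was 0.11 and all 9 were. After the correction for length and GC content it was 0.031 and 6 were, and with library totals alone it was 0.13 and all 9 were. NDUFA8, a protein of the intermembrane space held by disulfide bonds, was at 24.1, 21.5 and 21.1 CPM in siALDOA and at 20.6, 20.6 and 20.2 CPM in siControl. siALDOA replicate 1 stood above all other libraries, and these lay between 20.2 and 21.5 CPM. The log2 fold change was 0.12 (standard error 0.090, edgeR adjusted p = 0.445), or 0.060 without siALDOA replicate 1. NDUFA10, related to the deoxyribonucleoside kinases, was at 98.0, 96.2 and 98.0 CPM in siALDOA and at 89.0, 95.8 and 95.9 CPM in siControl. Here siALDOA replicate 2 and siControl replicate 3 differed by less than 1 CPM, and the log2 fold change was 0.06 (standard error 0.059, edgeR adjusted p = 0.618), or 0.022 without siControl replicate 1.

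NDUFA3 had the smallest p of the proximal group, and its log2 fold change was 0.15 (standard error 0.097, edgeR adjusted p = 0.385). It was measured at 27.6, 36.2 and 29.7 CPM in siALDOA and at 25.7, 29.0 and 29.8 CPM in siControl. The highest value came from siALDOA replicate 2, and without that library the log2 fold change was 0.03. NDUFS5, a subunit on the intermembrane space side, had the highest level of the group, at 134 CPM per kilobase, and a log2 fold change of 0.08 with an interval from -0.064 to 0.22. NDUFC1, a small membrane subunit, had the lowest, at 16.2 CPM per kilobase, with a log2 fold change of 0.05 that was -0.0071 without siControl replicate 3. NDUFC2 averaged 82.4 ± 5.28 CPM in siALDOA (SD, n = 3) against 79.8 ± 6.81 CPM in siControl (SD, n = 3). The readthrough gene NDUFC2-KCTD14, which shares its exons, averaged 77.2 ± 3.06 CPM (SD, n = 3) and 74.6 ± 7.26 CPM (SD, n = 3) in the same order. Both genes may hold the same reads, so they are not taken as separate measurements.

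The distal part of the membrane arm is built around the pumping subunits from mitochondrial DNA and has 12 nuclear accessory subunits in the list, all tested. Of these, 9 had a positive log2 fold change, and the median was 0.047. Without siControl replicate 1 the median was -0.013 and 4 were positive, and after the correction for length and GC content it was 0.015 and 7 were. With library totals alone it was 0.12 and 10 were. NDUFB4 had the smallest p, at 70.9, 77.9 and 76.3 CPM in siALDOA and 73.3, 84.0 and 88.7 CPM in siControl. siControl replicate 1 lay among the siALDOA libraries, and the log2 fold change was -0.13 (standard error 0.071, edgeR adjusted p = 0.294). NDUFB9, a member of the LYR protein family that binds an acyl carrier protein, has a canonical transcript of 691 bases. Its exons overlap those of MTSS1 and TATDN1, by up to 2001 bases. NDUFB9 was the most abundant of all members per kilobase, and what reads from the overlaps added to this was not tested. It was measured at 172, 158 and 150 CPM in siALDOA and 158, 185 and 172 CPM in siControl, which overlapped, and the log2 fold change was -0.10 (standard error 0.067, edgeR adjusted p = 0.371), within -0.16 (without siControl replicate 1) and -0.050 (without siControl replicate 2) when a library was left out.

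NDUFB5 had the lowest level of the distal group, at 10.6 CPM per kilobase, with a log2 fold change of 0.02 that turned negative when any of 4 libraries was left out. NDUFAB1 is the mitochondrial acyl carrier protein, which also serves fatty acid and lipoic acid synthesis. It averaged 40.1 ± 2.29 CPM in siALDOA (SD, n = 3) against 39.8 ± 2.58 CPM in siControl (SD, n = 3), and its log2 fold change was 0.01 with an interval from -0.15 to 0.17. After the correction for length and GC content its log2 fold change was -0.02. NDUFB1 had the widest interval of all members, on 76 to 144 counts per library. Its level was 4.38, 4.46 and 3.66 CPM in siALDOA and 2.44, 4.13 and 4.37 CPM in siControl. siControl replicate 1 was below all others, and the log2 fold change of 0.19 (standard error 0.22, edgeR adjusted p = 0.651) was not distinguishable from 0 at this depth. Without that library it was -0.029, so its sign rested on it.

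The members outside complex I were also similar between the groups. NDUFA4 was at 42.0, 50.4 and 44.7 CPM in siALDOA and at 40.3, 49.7 and 44.5 CPM in siControl, so the spread within each group exceeded the log2 fold change of 0.03 (interval -0.15 to 0.20). NDUFA4L2, a gene known for its induction by hypoxia, was at 8.87, 9.18 and 7.29 CPM in siALDOA and at 9.52, 5.50 and 9.44 CPM in siControl. siControl replicate 2 was the lowest of all 6 libraries. The log2 fold change was 0.05 with an interval from -0.31 to 0.41, and without siControl replicate 2 it was -0.17 (edgeR adjusted p = 0.5995, the lowest over the alternatives, which reached 0.982).

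The proteins that build complex I without staying in it were taken from a list of 20 assembly factors, of which ECSIT rose, NDUFAF4 fell and the other 18 did not pass the adjusted threshold. Over all tested genes 9.66% passed it, so 2 of 20 is near the background. The median log2 fold change of the list was 0.023. ECSIT, a scaffold of the membrane-arm assembly complex that also acts in Toll-like receptor signalling, was at 24.1, 26.1 and 25.9 CPM in siALDOA and at 17.96, 20.7 and 20.9 CPM in siControl. The groups did not overlap, and the log2 fold change was 0.35 (standard error 0.091, edgeR adjusted p = 0.0156). The call was lost without siALDOA replicate 2 (0.0652), without siALDOA replicate 3 (0.0556) and without siControl replicate 1 (0.0718), within a range from 0.0047 to 0.0718 over all alternatives.

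NDUFAF4 is a chaperone of the early assembly of the peripheral arm. It was at 9.12, 10.8 and 8.02 CPM in siALDOA and at 13.0, 12.55 and 12.8 CPM in siControl. All siControl libraries lay above all siALDOA libraries, and the log2 fold change was -0.46 (standard error 0.12, edgeR adjusted p = 0.0211). The call was lost without siALDOA replicate 3, at an adjusted p of 0.102, and also without siControl replicate 1 (0.0539), replicate 2 (0.0584) or replicate 3 (0.0727). With library totals alone it was lost too, at 0.0760, and over all alternatives the adjusted p ranged from 0.0047 to 0.102.

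**Figure D4:**
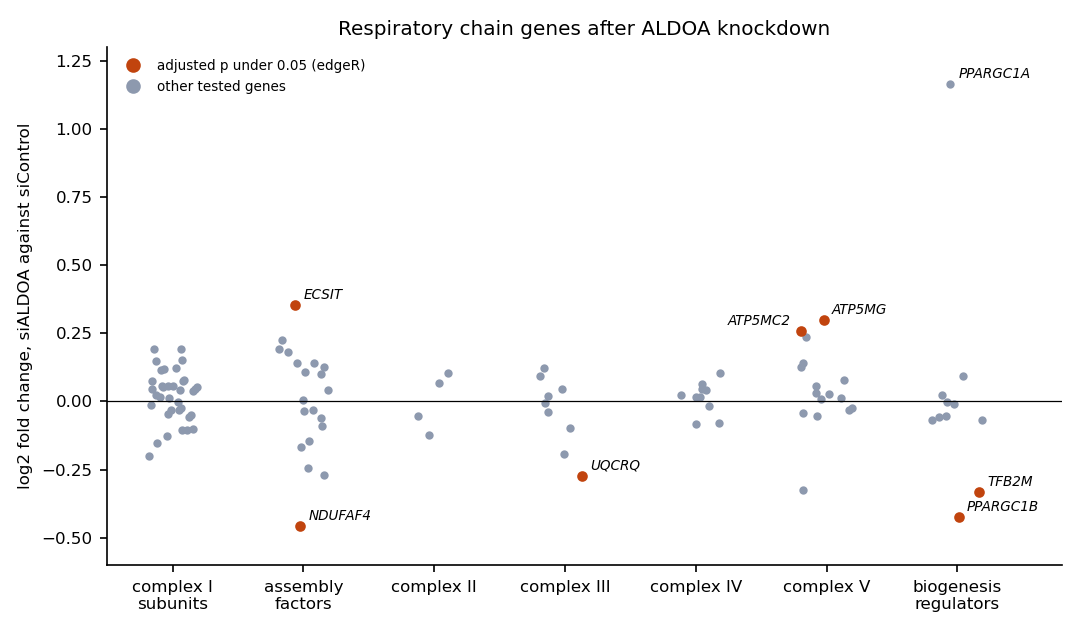
Log2 fold change with siALDOA against siControl (vertical axis) for the tested genes of each list; each point is a gene, and those with an edgeR adjusted p under 0.05 are orange and named. None of the 36 tested complex I subunits is orange, and 7 genes of the other lists are, with PPARGC1A at 1.16 not past the threshold.

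The nuclear subunits of the later complexes of the chain gave a similar picture. Of 39 genes of complexes II to V, ATP5MG and ATP5MC2 rose, UQCRQ fell and 36 did not pass the adjusted threshold, where 9.66% of all tested genes passed, and the median was 0.019. UQCRQ, a small subunit of complex III, was at 66.9, 69.2 and 62.4 CPM in siALDOA and 76.4, 83.2 and 80.2 CPM in siControl, with no overlap and a log2 fold change of -0.27 (standard error 0.065, edgeR adjusted p = 0.0091). The call was lost without siALDOA replicate 3 (0.0559), without siControl replicate 2 (0.0625) and with library totals alone (0.154), the last being the highest adjusted p over the alternatives, which began at 1.12e-04.

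ATP5MG and ATP5MC2 are subunits of the membrane part of ATP synthase. ATP5MG averaged 118 ± 12.6 CPM in siALDOA (SD, n = 3) against 96.0 ± 4.36 CPM in siControl (SD, n = 3), and its log2 fold change was 0.30 (edgeR adjusted p = 0.0091), and every siALDOA library was above every siControl library. ATP5MC2, which encodes a form of the rotating ring subunit, averaged 77.1 ± 1.47 and 64.5 ± 3.67 CPM in the same order (SD, n = 3 each), and its log2 fold change was 0.26 (edgeR adjusted p = 0.0122), also with no overlap. The adjusted p of ATP5MG was 0.0653 without siControl replicate 3 and that of ATP5MC2 was 0.0655 without siControl replicate 1, in each case the highest over the alternatives. SDHC had the smallest p among 4 genes of complex II, with a log2 fold change of -0.12 (edgeR adjusted p = 0.209; 0.0473 with the correction for length and GC content), and COX5A among 10 genes of complex IV, with -0.08 (edgeR adjusted p = 0.506). Called were 1 of 9 genes of complex III and 2 of 16 of complex V, against the 9.66% of all tested genes, so neither count stands out.

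Regulators that drive nuclear and mitochondrial genes of the chain were taken from a list of 11, of which PPARGC1B and TFB2M fell, 0 rose and 9 did not pass the adjusted threshold, where 4.36% of all tested genes were called higher and 5.29% lower. The median of the list was -0.052. PPARGC1B, a coactivator of mitochondrial biogenesis, was at 15.8, 17.3 and 18.4 CPM in siALDOA and at 26.01, 20.02 and 23.2 CPM in siControl. The highest siALDOA library lay below the lowest siControl library, and the log2 fold change was -0.43 (standard error 0.10, edgeR adjusted p = 0.0116). Its adjusted p was 0.0669 without siControl replicate 1 and 0.0544 with library totals alone, in a range from 6.53e-04 to 0.0669 over all alternatives.

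TFB2M, which opens promoters of mitochondrial DNA for the mitochondrial RNA polymerase, was at 21.3, 24.6 and 22.3 CPM in siALDOA and at 30.9, 27.3 and 27.7 CPM in siControl. The groups did not overlap, and the log2 fold change was -0.33 (standard error 0.088, edgeR adjusted p = 0.0188). The call was lost without siALDOA replicate 1 (0.0560), without siALDOA replicate 3 (0.0625), without siControl replicate 1 (0.0852) and with library totals alone, at 0.127, the highest of the alternatives, which began at 0.0038. The polymerase itself, POLRMT, had a log2 fold change of -0.07 and TFAM, which packages mitochondrial DNA, of -0.05, with adjusted p of 0.607 and 0.694 by edgeR.

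The factors whose motifs were searched in the windows were at similar levels in both groups. The log2 fold change was -0.06 for NRF1, with an interval from -0.27 to 0.16, and 0.02 for GABPA, with an interval from -0.13 to 0.18. YY1 was at 214, 199 and 204 CPM in siALDOA and at 198, 192 and 189 CPM in siControl. Its groups did not overlap, but the lowest siALDOA value was within 2 CPM of the highest siControl value, and the log2 fold change was 0.09 (standard error 0.056, edgeR adjusted p = 0.327). GABPB1 and ESRRA had log2 fold changes of -0.01 and -0.0034, and PPRC1 of -0.07. PPARGC1A, the best known coactivator of the group, was near the limit of detection, at 2.23, 0.699 and 0.528 CPM in siALDOA and 0.577, 0.655 and 0.303 CPM in siControl. siALDOA replicate 1 alone stood high, and the log2 fold change of 1.16 (standard error 0.51) had an edgeR adjusted p of 0.171. Without that library it was 0.27.

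**Figure D5:**
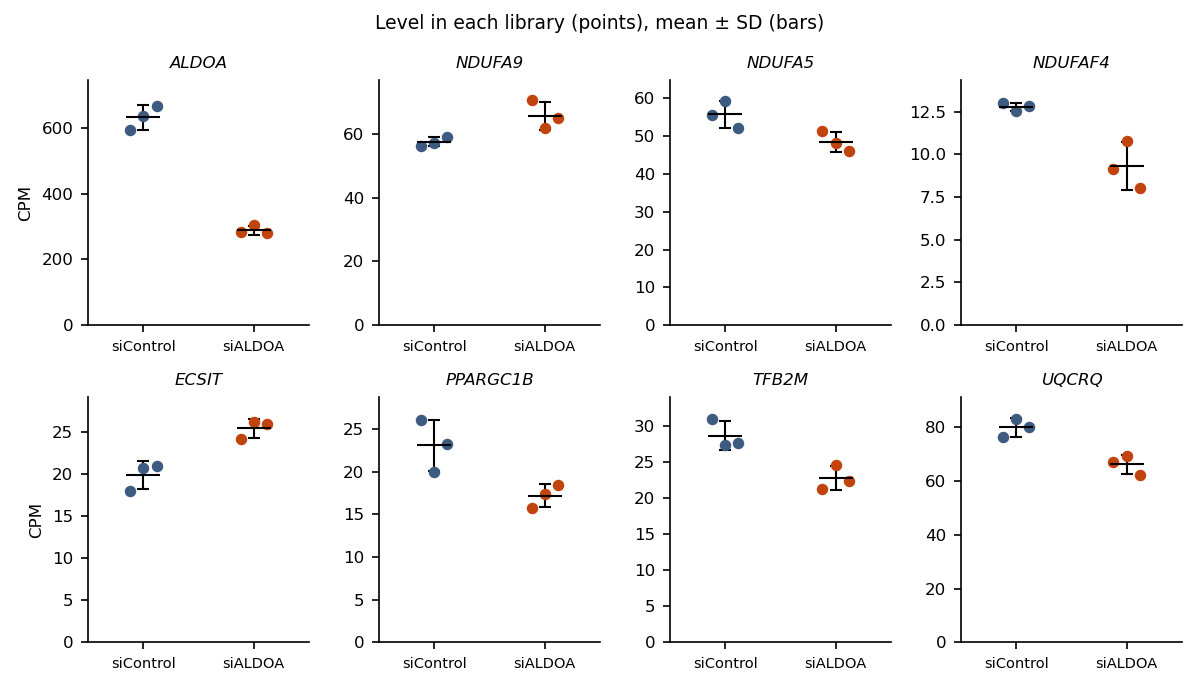
Level in CPM (vertical axes, each from 0) of ALDOA, the complex I genes NDUFA9 and NDUFA5, the assembly factors NDUFAF4 and ECSIT, the regulators PPARGC1B and TFB2M and the complex III gene UQCRQ; points are the 3 libraries of a group and bars are mean ± SD. The groups do not overlap in any panel, and the gap is widest for ALDOA, at 289 against 632 CPM.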

How the data were processed

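RNA-Seq of 6 HT29 libraries, 3 with siALDOA and 3 with siControl as the labels state, was analysed. The authors mapped reads to hg38 by tophat2, counted by gene symbol with gfold and deposited raw counts of each library, without normalization. Gene annotation, strand and the treatment of reads with several matches were not given in the sources used here. Counts were tested in R 4.3.3 with edgeR 4.0.16 (filterByExpr, TMM, quasi-likelihood F-test, Benjamini-Hochberg adjustment over 15307 genes). The method was also run on simulated counts, and the outcome of that run is not reported here. Thresholds were an adjusted p of 0.05 and an unadjusted P of 0.01. Log2 CPM used a prior count of 2, and intervals are 95%. Standard errors are the log2 fold change over the square root of F.

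Transcript lengths and overlaps came from GENCODE release 44 and promoter windows from RefSeq. Alternatives were limma-voom (limma 3.58.1), DESeq2 1.42.0, scaling by library totals with or without ribosomal RNA genes, upper quartile normalization, no filter, a minimum of 10 counts in each library, a replicate block, a correction of each library for length and GC content by splines with 5 degrees of freedom, block and correction together, and leaving out each library. Members and lists were chosen with earlier results of these data known. Named genes were ALDOA, members past the adjusted p, in each role the smallest p and the highest and lowest CPM per kilobase, NDUFA4, NDUFA4L2, NDUFAB1, untested members, up to 3 called genes of each other list or else the smallest p, and the 11 regulators. 1 member is not reported here on its own. Other members were named after their values were seen. Figures were drawn with matplotlib 3.10.9.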

Additional observations from a re-analysis of the deposited data

How the results depend on the processing

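ALDOA kept its direction and its call in all 16 alternatives, with a log2 fold change between -1.17 and -1.06. The median of the complex I members moved by less than the spread between libraries in all 16, from -0.017 (without siControl replicate 1) to 0.078 (without siControl replicate 2) over libraries left out and from 0.0075 (block and correction) to 0.11 (library totals only) over the others. That scaling gave 896 genes higher and 279 lower, so that 76.3% of the called genes were higher against 45.2% under TMM, and it put the median of all genes at 0.075. With ribosomal RNA genes left out of the totals, 735 genes were higher and 760 lower, so that 49.2% of the called genes were higher. The median of all genes was then 0.0099 and 25 members were positive, against 32 with all genes in the totals. Leaving out 1 library gave between 359 (without siControl replicate 2) and 644 genes higher and between 471 (without siControl replicate 3) and 790 lower; fewer libraries enter these fits.

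The replicate block gave 987 genes higher and 1175 lower and put NDUFA9 (adjusted p = 0.0423, higher) and NDUFA5 (0.0371, lower) past the threshold, so 1 member was called in each direction. The numbers were not taken as pairs, since the labels do not say that a number marks a shared day or batch. The correlations of same-numbered libraries were 0.035, 0.027 and 0.026, and each library correlated best with its own number. Counting noise also enters these correlations, so they cannot decide whether the numbers mark shared batches. The correction for length and GC content gave 853 genes higher and 1112 lower, and also called NDUFA9 higher and NDUFA5 lower. Block and correction together gave 1220 genes higher and 1576 lower, with 1 member higher (NDUFA9) and 4 lower (NDUFA5, NDUFB4, NDUFB9 and NDUFS6). SDHC of complex II was also called lower with the correction (0.0473) and with both (0.0161). Among libraries left out, 0 members were called higher and 0 or 1 lower, the latter NDUFA5 without siALDOA replicate 1. At an unadjusted P of 0.01 limma-voom called 0 members higher. With a library left out, NDUFA9 was called higher only without siALDOA replicate 2, and 0 members were in the other fits. Members called lower at that P were 1 with no filter, 1 with the block, 2 with the correction, 4 with both, and 0 or 1 with a library left out. In the main fit 5.72% of all tested genes were called higher at that P and 6.74% lower. These shares are not given here for the alternatives, so their counts are not set against a background. The causes were not tested.

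Signs turned under library totals only for NDUFV3 (0.029), NDUFV1 (0.022), PPRC1 (0.0074), NRF1 (0.019), GABPB1 (0.069), ESRRA (0.072), TFAM (0.019) and POLRMT (0.0071), under totals without ribosomal RNA genes for GABPB1 (8.03e-05) and ESRRA (0.0042), under limma-voom for GABPB1 (4.17e-05), under upper quartile for ESRRA (0.0032), and for NDUFAB1 after the correction without the block (-0.022) and with it (-0.023). With a library left out, log2 fold changes ran from -0.091 to 0.041 for NDUFV3, -0.0071 to 0.12 for NDUFC1, -0.030 to 0.092 for NDUFB5, -0.049 to 0.11 for NDUFA4, -0.17 to 0.17 for NDUFA4L2, -0.040 to 0.052 for NDUFAB1, -0.029 to 0.34 for NDUFB1, -0.019 to 0.10 for NDUFS4, -0.019 to 0.0998 for NDUFC2, -0.046 to 0.077 for GABPA, -0.080 to 0.098 for GABPB1 and -0.045 to 0.057 for ESRRA. They kept their sign, from -0.16 to -0.056 for NDUFS8, -0.11 to -0.0077 for NDUFV1, -0.22 to -0.10 for NDUFS6, -0.20 to -0.068 for NDUFB4, 0.046 to 0.13 for NDUFS5 and -0.13 to -0.060 for COX5A. The sign also held for NRF1 (-0.11 to -0.0033), TFAM (-0.12 to -0.013), POLRMT (-0.11 to -0.016) and PPRC1 (-0.091 to -0.029). Over 41 named genes besides ALDOA, 577 of 656 values under alternatives kept direction and side of the threshold, 31 lost a call, 12 gained one and 36 changed sign. Intervals cover the spread between 3 libraries a group, and NDUFB1, at 76 to 144 counts, was the least precise member.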
